A study of Mus musculus with 12 samples.

Results

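The nuclear-encoded genes of mitochondrial oxidative phosphorylation were measured in pancreatic islets of mice lacking the nuclear receptor SHP (SHPKO) and of wild-type (WT) mice. Genes were taken by symbol: those beginning with Ndufa, Ndufb, Ndufc, Ndufs, Ndufv, Uqcr, Cox4 to Cox8 or Atp5, with Sdha, Sdhb, Sdhc, Sdhd and Cycs. This gave 138 of the 45281 probes, for 88 genes. Of these, 106 probes for 78 genes were kept, because a group existed in which each of its 3 arrays gave a detection p below 0.01. The test ran over 8875 genes in all. The symbols also bring in complex I assembly factors (the Ndufaf genes), Cox7a2l, which takes part in joining complexes into supercomplexes, and 1 probe named for a pseudogene, Ndufs5-ps. That probe could also bind transcripts of its near-identical parent gene, so its value is uncertain.

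The arrays were Illumina mouse beadchips hybridised with RNA from collagenase-isolated islets of male C57Bl/6Hsd mice aged 10 months. The groups were SHPKO mice on a western diet (SHPKO_WD), WT mice on a western diet (WT_WD), SHPKO mice on chow (SHPKO_Chow) and WT mice on chow (WT_Chow), each with 3 arrays, 12 in all. The diets were fed for 6 months from 4 months of age, and the labels name neither the diet's composition nor the design of the SHP allele. RNA of 5 to 9 mice was pooled per group, and the 3 arrays of a group are taken as technical repeats of the same pooled RNA. The p-values then speak to array-to-array variation and say nothing of variation between mice. Fewer cells of a type and less RNA per cell cannot be told apart in such samples.

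In oxidative phosphorylation, complexes I and II pass electrons from NADH and succinate to ubiquinone, complex III passes them to cytochrome c, and complex IV passes them to oxygen. Complexes I, III and IV pump protons across the inner membrane, and ATP synthase uses the return of the protons to make ATP. In beta cells the ATP made from glucose in this way closes potassium channels and so couples glucose to insulin release.

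The groups could not be checked at the deleted gene, since the Nr0b2 (SHP) probe was not detected on any array (detection p between 0.299 and 0.761). Islet endocrine markers were detected in all groups, 12 of 13 on at least 1 array of each, with a summed normalized level of 138000 to 143000 in SHPKO_WD, 146000 to 147000 in WT_WD, 141000 to 146000 in SHPKO_Chow and 130000 to 134000 in WT_Chow. The summed level of the 27 acinar cell markers was 35900 to 40200 in SHPKO_WD, 224000 to 246000 in WT_WD, 36000 to 41100 in SHPKO_Chow and 281000 to 296000 in WT_Chow, with Rbpjl, Ctrc and Ptf1a undetected in both SHPKO groups. On each diet 26 of the 27 were lower in SHPKO islets. The 11 lymphocyte markers summed to 1190 to 1220 in SHPKO_WD, 307 to 331 in WT_WD, 272 to 297 in SHPKO_Chow and 271 to 292 in WT_Chow. Undetected on all arrays of a group were 2 of them in SHPKO_WD, 8 in WT_WD, 10 in SHPKO_Chow and all 11 in WT_Chow. The sums outside SHPKO_WD are therefore mostly background. Red cell markers (6 on the array) summed to 3390 to 4170 in SHPKO_WD, 2190 to 2920 in WT_WD, 9520 to 11400 in SHPKO_Chow and 10400 to 11400 in WT_Chow. Matrix and fibroblast markers (10) summed to 1170 to 1300 in SHPKO_WD, 743 to 864 in WT_WD, 1080 to 1170 in SHPKO_Chow and 681 to 768 in WT_Chow, and none of the 8 fat cell markers was detected. The SHPKO against WT comparisons therefore also differ in acinar markers on both diets and in lymphocyte markers on the western diet. Of the 4 matrix markers tested, 2 passed as higher in SHPKO islets on each diet. Of the 4 red cell markers tested, 3 passed as higher in SHPKO islets on the western diet. The diet comparisons differ in red cell markers and, mainly in SHPKO islets, in lymphocyte markers. Of the 27 acinar markers, the diet moved 1 up and 10 down in WT islets, and 3 up and 7 down in SHPKO islets. Single islet markers passed the test as well: Ppy by 0.58 between genotypes on chow, -0.50 between genotypes on the western diet and 1.19 for the diet in WT islets, and Mafa by -0.73 and Slc2a2 by -0.50 for the diet in SHPKO islets. The part of these markers in the results was not tested.

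A single array, SHPKO_Chow replicate 3, stood apart for these genes. On SHPKO_Chow replicate 3, 60 of the 78 members (76.9%) lay below the mean of the group's other 2 arrays, against 56.3% of all genes. Their median log2 difference there was -0.18, against -0.04 over all genes. The members' median was between -0.05 and 0.11 on each of the other 11 arrays. Results that this array moves by over 1.5 times are given with and without it.

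The promoter of Atp5b is shown because Atp5b is the member with the largest genotype difference. No promoter was matched for Cox6a2, the member that fell on the western diet, or for Uqcrq. The promoter of Cox6a1, the widely expressed partner isoform of Cox6a2, is shown instead, though Cox6a1 itself was not called. The sequences are RefSeq's for GRCm38.p6, running from 250 bases before to 50 after the annotated start. The Atp5b promoter lies at chr10:128083057-128083356 on the plus strand, and the Cox6a1 promoter at chr5:115348909-115349208 on the minus strand. Capitals mark matches, on either strand, to 4 motifs: CCAAT, the NRF1 core GCATGCGC, the ETS core CCGGAAG to which GABP can bind, and AAGGTCA, an extended half-site of the ERR orphan nuclear receptors.
Atp5b: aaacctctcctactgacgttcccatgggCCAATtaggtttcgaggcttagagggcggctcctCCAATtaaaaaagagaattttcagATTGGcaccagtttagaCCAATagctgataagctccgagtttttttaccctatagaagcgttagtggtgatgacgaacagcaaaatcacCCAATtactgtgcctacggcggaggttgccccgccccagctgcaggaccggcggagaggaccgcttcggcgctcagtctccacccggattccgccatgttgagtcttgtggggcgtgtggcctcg
Cox6a1: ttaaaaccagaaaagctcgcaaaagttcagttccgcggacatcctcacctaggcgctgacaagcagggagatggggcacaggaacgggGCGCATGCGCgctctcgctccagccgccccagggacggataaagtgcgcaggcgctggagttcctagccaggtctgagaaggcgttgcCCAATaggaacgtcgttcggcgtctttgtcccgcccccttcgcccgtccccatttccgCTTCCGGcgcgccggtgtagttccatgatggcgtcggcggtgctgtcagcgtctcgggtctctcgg

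The Atp5b window held 5 CCAAT matches and none of the other 3 motifs, whereas the Cox6a1 window held 2 overlapping NRF1 core matches in 1 palindrome, 1 ETS core and 1 CCAAT match. Promoters were matched by symbol for 73 of the 88 genes. The NRF1 core was in 13 of the 73 (17.8%), against 3.05% of all 27025 genes in the table. The ETS core was in 24.7% of the members' promoters, against 9.93% of all. CCAAT was in 45.2% against 41.1%, and the ERR half-site in 9.59% (7 genes, Sdhd and Atp5g3 among them) against 5.38%. The members' windows were also richer in G and C, with a median of 59% against 52.7%. These matches describe the letters of the windows only.

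**Figure D1:**
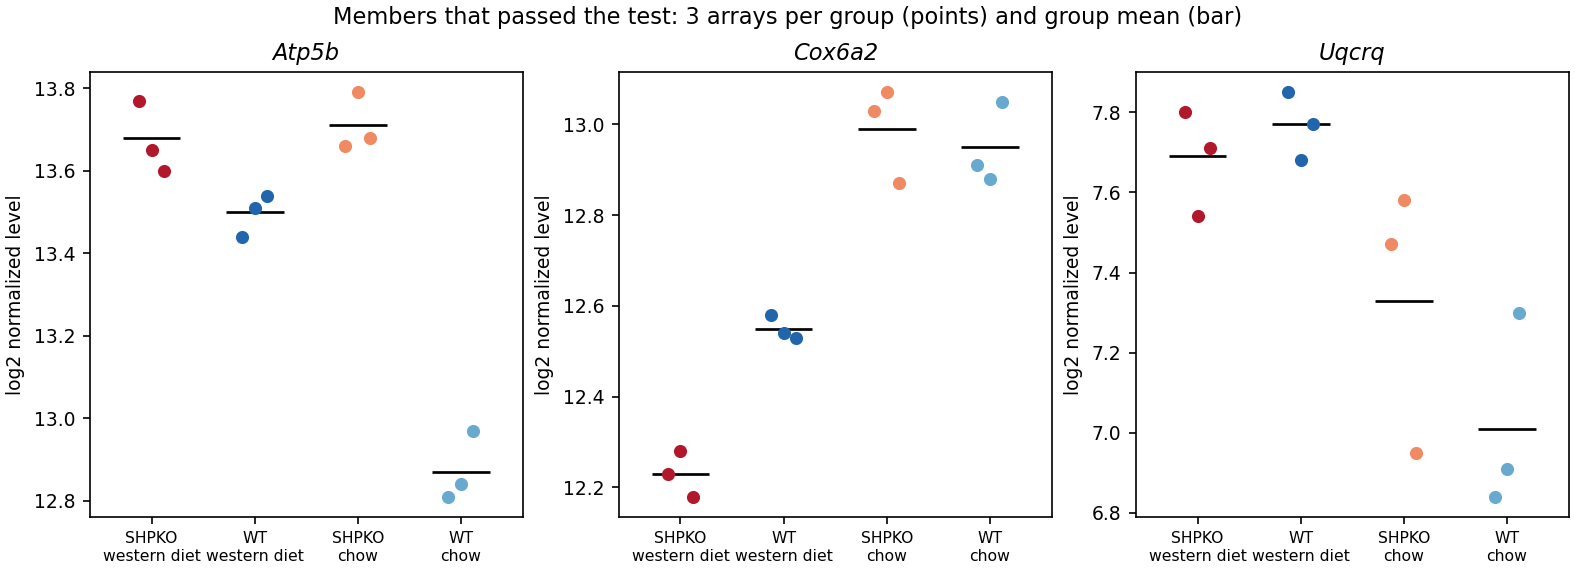
Log2 normalized level (y axis) of Atp5b, Cox6a2 and Uqcrq on the 3 arrays of each group (points), with the group mean (bar); the groups run SHPKO western diet, WT western diet, SHPKO chow, WT chow. Atp5b is low in WT chow (12.81 to 12.97) and at or above 13.44 on the 9 other arrays, and Cox6a2 is lowest in SHPKO western diet (12.18 to 12.28). The y axes do not start at 0 and differ between panels.

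Atp5b, the beta subunit that carries the catalytic sites of ATP synthase, was the only member that passed the test between genotypes, and it did so on chow. The array held no other probe for Atp5b, so no other probe could check its values. Its log2 normalized level was 13.77, 13.65 and 13.60 on the SHPKO_WD arrays, 13.44, 13.51 and 13.54 on the WT_WD arrays, 13.66, 13.79 and 13.68 on the SHPKO_Chow arrays and 12.81, 12.84 and 12.97 on the WT_Chow arrays. The WT_Chow arrays lay below all 9 others, and the 2 SHPKO groups overlapped each other. Both SHPKO groups also lay above WT_WD with no overlap. On chow it was 1.78-fold higher in SHPKO islets (log2 difference 0.83, SE 0.08, limma adjusted p = 3.98e-05). On the western diet the difference of 0.18 did not pass (adjusted p = 0.324, 95% interval 0.00 to 0.36).

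The genotype difference of Atp5b was itself smaller on the western diet than on chow, by 0.66 on the log2 scale (interaction -0.66, SE 0.12, limma adjusted p = 0.0095). In WT islets the western diet raised Atp5b 1.54-fold (log2 difference 0.62, adjusted p = 0.00104), while in SHPKO islets the diet difference was -0.03 (95% interval -0.22 to 0.15, adjusted p = 0.868). These comparisons share the arrays of the 4 groups and are therefore not independent of one another. Leaving out SHPKO_Chow replicate 3 gave 0.85 for the chow difference and -0.67 for the interaction.

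Across all members, Atp5b was the single call between genotypes on chow, 1 of 78, beside a background of 2.82% of all 8875 genes tested (1.28% higher, 1.53% lower in SHPKO). On the western diet 0 of 78 passed by limma, against 4.97% of all genes (3.09% higher, 1.88% lower), and 3 of 78 had an unadjusted p below 0.05, against 1415 of all 8875 genes. The interaction called 1 of 78, against 2.14% of all genes (1.55% higher, 0.586% lower). The members' 95% intervals lay within 1.5-fold in either direction for 64 of 78 on chow and for 70 of 78 on the western diet, compared with 81.8% and 80.2% of all genes.

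Cox6a2, the isoform of complex IV subunit 6A best known from heart and skeletal muscle, fell on the western diet in both genotypes. It had 12.23, 12.28 and 12.18 in SHPKO_WD, 12.58, 12.54 and 12.53 in WT_WD, 13.03, 13.07 and 12.87 in SHPKO_Chow and 12.91, 12.88 and 13.05 in WT_Chow. The SHPKO_WD arrays were the lowest, the WT_WD arrays came next without overlap, and the 2 chow groups overlapped. The diet difference was -0.76 in SHPKO islets (0.589-fold, SE 0.09, limma adjusted p = 9.59e-05) and -0.40 in WT islets (0.758-fold, SE 0.09, adjusted p = 0.0171). Without SHPKO_Chow replicate 3 the difference in SHPKO islets was -0.83. The WT call was lost, with the difference still at -0.40, when WT_WD replicate 2 (adjusted p = 0.0627) or WT_WD replicate 3 (adjusted p = 0.0561) was left out.

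The larger fall of Cox6a2 in SHPKO islets was not a called difference between genotypes. The interaction was -0.36 (95% interval -0.62 to -0.10, limma adjusted p = 0.2), and SHPKO_WD minus WT_WD was -0.32 (adjusted p = 0.0518). Without SHPKO_Chow replicate 3, which belongs to neither group, the adjusted p of the SHPKO_WD minus WT_WD difference was 0.0308. Cox6a1, the isoform made in most tissues, had 11.96, 11.98 and 11.85 in SHPKO_WD, 11.87, 11.87 and 11.88 in WT_WD, 11.97, 12.03 and 11.63 in SHPKO_Chow and 12.07, 12.15 and 12.06 in WT_Chow. Its groups on chow did not overlap, with SHPKO_Chow below WT_Chow, but its difference of -0.22 did not pass (adjusted p = 0.385). It was -0.09 without SHPKO_Chow replicate 3 (adjusted p = 0.673).

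Uqcrq, a small subunit of complex III that helps hold cytochrome b, was higher on the western diet in WT islets. Its kept probe had 7.80, 7.54 and 7.71 in SHPKO_WD, 7.85, 7.68 and 7.77 in WT_WD, 7.47, 7.58 and 6.95 in SHPKO_Chow and 6.84, 6.91 and 7.30 in WT_Chow. WT_WD lay above WT_Chow with no overlap, whereas SHPKO_WD overlapped SHPKO_Chow. The diet difference was 0.75 in WT islets (1.68-fold, SE 0.16, limma adjusted p = 0.0177) and 0.35 in SHPKO islets (adjusted p = 0.252), and the 2 did not differ by the interaction (-0.40, adjusted p = 0.535). The difference in SHPKO islets was 0.16 (adjusted p = 0.616), and the interaction -0.59 (adjusted p = 0.169), without SHPKO_Chow replicate 3. The WT call was lost, at adjusted p 0.0534 to 0.0767, when WT_Chow replicate 1 or 2 or WT_WD replicate 1 or 3 was left out. Between genotypes on chow the kept probe differed by 0.32 (limma adjusted p = 0.414). Without SHPKO_Chow replicate 3 that genotype difference was 0.51 (adjusted p = 0.0827). A second Uqcrq probe was not detected on any array.

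In WT islets the diet comparison thus called 3 of 78 members, 2 higher and 1 lower, beside a background of 5.8% of all genes (2.88% higher, 2.92% lower). In SHPKO islets it called 1 of 78, lower, beside 5.78% (3.56% higher, 2.22% lower). The intervals lay within 1.5-fold for 69 of 78 members in WT islets and for 56 of 78 in SHPKO islets, against 77.2% and 77.5% of all genes.

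**Figure D2:**
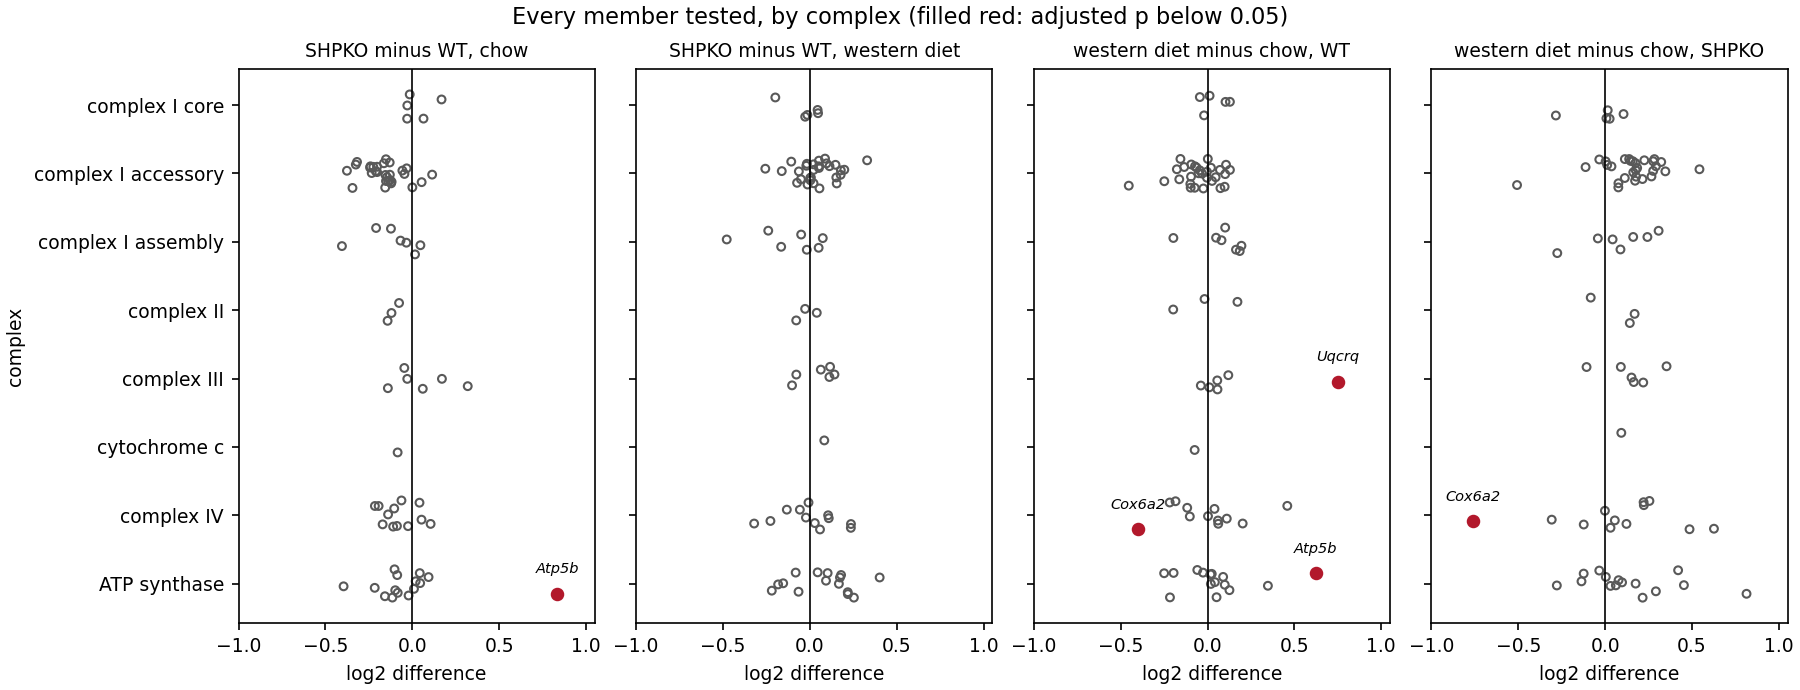
Log2 difference (x axis) of each of the 78 members, by complex (y axis), in 4 comparisons: SHPKO minus WT on chow, SHPKO minus WT on the western diet, western diet minus chow in WT and western diet minus chow in SHPKO. Filled red points passed an adjusted p of 0.05 and are named; open points did not. Points within a row are spread vertically for sight only.

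The core subunits of complex I, which hold the flavin and iron-sulfur clusters, were close to level across groups. All 5 tested (Ndufs3, Ndufs7, Ndufs8, Ndufv1 and Ndufv2) had 95% intervals within 1.5-fold in every simple comparison and in the interaction. Ndufv1, which binds NADH, had the largest difference, -0.28 for the western diet in SHPKO islets (adjusted p = 0.0788) and -0.20 for SHPKO minus WT on the western diet (adjusted p = 0.267). Ndufv2, the neighbouring iron-sulfur subunit, differed by 0.17 between genotypes on chow (adjusted p = 0.411).

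Among the 29 accessory subunits of complex I none passed in any comparison. Their median difference between genotypes was -0.15 on chow, with 3 of 29 above 0, against 51.5% of all genes. On the western diet the median was 0.02, with 20 of 29 above 0, against 53.7% of all genes. For the diet it was -0.04 in WT islets and 0.17 in SHPKO islets. Without SHPKO_Chow replicate 3 the chow genotype median was -0.07 and the SHPKO diet median 0.04.

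Ndufa3, a small accessory subunit, had 10.85 to 11.16 in SHPKO_WD, 10.96, 10.61 and 10.46 in WT_WD, 10.87, 10.81 and 9.72 in SHPKO_Chow and 10.97, 10.91 and 10.64 in WT_Chow. The value of 9.72 was the lowest of the 12, and the other 2 SHPKO_Chow arrays lay inside the WT_Chow range. The genotype difference on chow was -0.38 (adjusted p = 0.565) with this array and 0.00 without it. Ndufb11, a membrane-arm subunit detected on 2 of the 3 WT_WD arrays and on all arrays of the other groups, differed by -0.45 for the diet in WT islets (adjusted p = 0.348). That value was -0.07 without WT_WD replicate 1, the array that did not detect it, and -0.73 without WT_WD replicate 2.

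The 7 complex I assembly factors with Ndufaf names gave no call either. Ndufaf8, an assembly factor of the iron-sulfur part, had 7.78, 7.91 and 7.72 in SHPKO_WD, 8.05, 7.92 and 7.94 in WT_WD, 7.71, 8.02 and 7.56 in SHPKO_Chow and 8.14, 8.09 and 8.27 in WT_Chow. Its groups did not overlap between genotypes on either diet, and the chow difference was -0.41 (adjusted p = 0.0999). Without SHPKO_Chow replicate 2 that difference was -0.54 (adjusted p = 0.0204), and without replicate 3 it was -0.30.

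Ndufaf7, a methyltransferase needed for complex I assembly, had 6.68, 6.44 and 6.32 in SHPKO_WD, 7.07, 7.03 and 6.78 in WT_WD, 6.61, 6.61 and 7.05 in SHPKO_Chow and 6.86, 6.88 and 6.90 in WT_Chow. SHPKO_WD lay below WT_WD with no overlap, by 0.48 (log2 difference -0.48, adjusted p = 0.0659). It passed without SHPKO_Chow replicate 3 (adjusted p = 0.0238) and without SHPKO_WD replicate 1 (adjusted p = 0.049). Ndufaf3, another assembly factor, differed by 0.31 for the diet in SHPKO islets (adjusted p = 0.379).

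Of complex II, succinate dehydrogenase, the iron-sulfur subunit Sdhb and the membrane anchors Sdhc and Sdhd were tested, while the flavoprotein Sdha was not detected (detection p between 0.107 and 0.929). None of the 3 passed in any comparison. Sdhb differed by -0.14 between genotypes on chow (adjusted p = 0.601), by -0.26 without SHPKO_Chow replicate 3 and by -0.07 without SHPKO_Chow replicate 2. For the diet in WT islets it differed by -0.20 (adjusted p = 0.297). A second, dimmer Sdhb probe differed by 0.01 between genotypes on chow and by -0.05 for the diet in WT islets. Sdhd ran from 7.24 to 8.09 in SHPKO_WD, 7.38 to 8.13 in WT_WD, 7.29 to 7.74 in SHPKO_Chow and 7.28 to 8.03 in WT_Chow, so its groups overlapped throughout. It differed by 0.17 for the diet in WT islets (adjusted p = 0.753) and by 0.17 in SHPKO islets (adjusted p = 0.76), or 0.29 without SHPKO_Chow replicate 3. Cycs, cytochrome c itself, also overlapped between all groups: 9.67 to 9.90 in SHPKO_WD, 9.59 to 9.81 in WT_WD, 9.63 to 9.73 in SHPKO_Chow and 9.67 to 9.85 in WT_Chow.

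In complex III, 6 genes were tested, and Uqcrq was the only one called. The core protein Uqcrc2 differed by 0.14 between genotypes on the western diet (adjusted p = 0.507). Its arrays read 11.62, 11.63 and 11.69 in SHPKO_WD, 11.46, 11.48 and 11.57 in WT_WD, 11.44, 11.53 and 11.69 in SHPKO_Chow and 11.48, 11.40 and 11.28 in WT_Chow. Uqcrfs1, the Rieske iron-sulfur protein, was not detected on all 3 arrays of any group. The medians of the complex were 0.02 and 0.09 for the genotype on chow and on the western diet, and the chow median was 0.11 without SHPKO_Chow replicate 3.

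In complex IV, 12 genes were tested, with Cox6a2 the only call. The medians were -0.10 for the genotype on chow and 0.01 on the western diet, and 0.09 and 0.02 for the diet in SHPKO and WT islets. Without SHPKO_Chow replicate 3 the chow genotype median was -0.03 and the SHPKO diet median 0.01. Cox7a2, the widely expressed isoform of subunit 7A, differed by 0.49 for the diet in SHPKO islets (adjusted p = 0.0518). Cox7b was close to background, detected on 2 of 3 arrays in SHPKO_WD, 3 in WT_WD, 1 in SHPKO_Chow and 0 in WT_Chow, and no fold is given for it. The tissue- or testis-specific isoforms Cox4i2, Cox6b2, Cox7b2, Cox8b and Cox8c were not detected.

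Beside Atp5b, 14 of the 15 ATP synthase genes tested gave no call in any comparison. The alpha subunit Atp5a1, which alternates with the beta subunit in the catalytic head, differed by -0.10 between genotypes on chow (adjusted p = 0.929), or -0.33 without SHPKO_Chow replicate 3. Its second, dimmer probe differed by 0.55, so the 2 probes disagreed by 0.65. Of the subunit c genes, whose products form the rotor ring, Atp5g1 was not among the members. Atp5g2 differed by -0.08 between genotypes on chow and by 0.17 on the western diet. Atp5g3 differed by -0.11 on chow (-0.07 without SHPKO_Chow replicate 3) and by -0.07 on the western diet. The OSCP gene Atp5o differed by at most 0.08 in the simple comparisons at its brightest probe, while a dimmer probe differed by -0.42 between genotypes on chow and by -0.35 for the diet in WT islets. Atp5md, a small accessory subunit near background, was 5.47, 5.89 and 6.49 in SHPKO_WD, 5.48, 5.35 and 5.82 in WT_WD, 5.01, 5.11 and 5.29 in SHPKO_Chow and 5.53, 5.25 and 5.82 in WT_Chow. SHPKO_WD lay above SHPKO_Chow with no overlap, without a call (adjusted p = 0.0537). Since 1 of the 3 SHPKO_Chow arrays detected it, no fold is given.

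**Figure D3:**
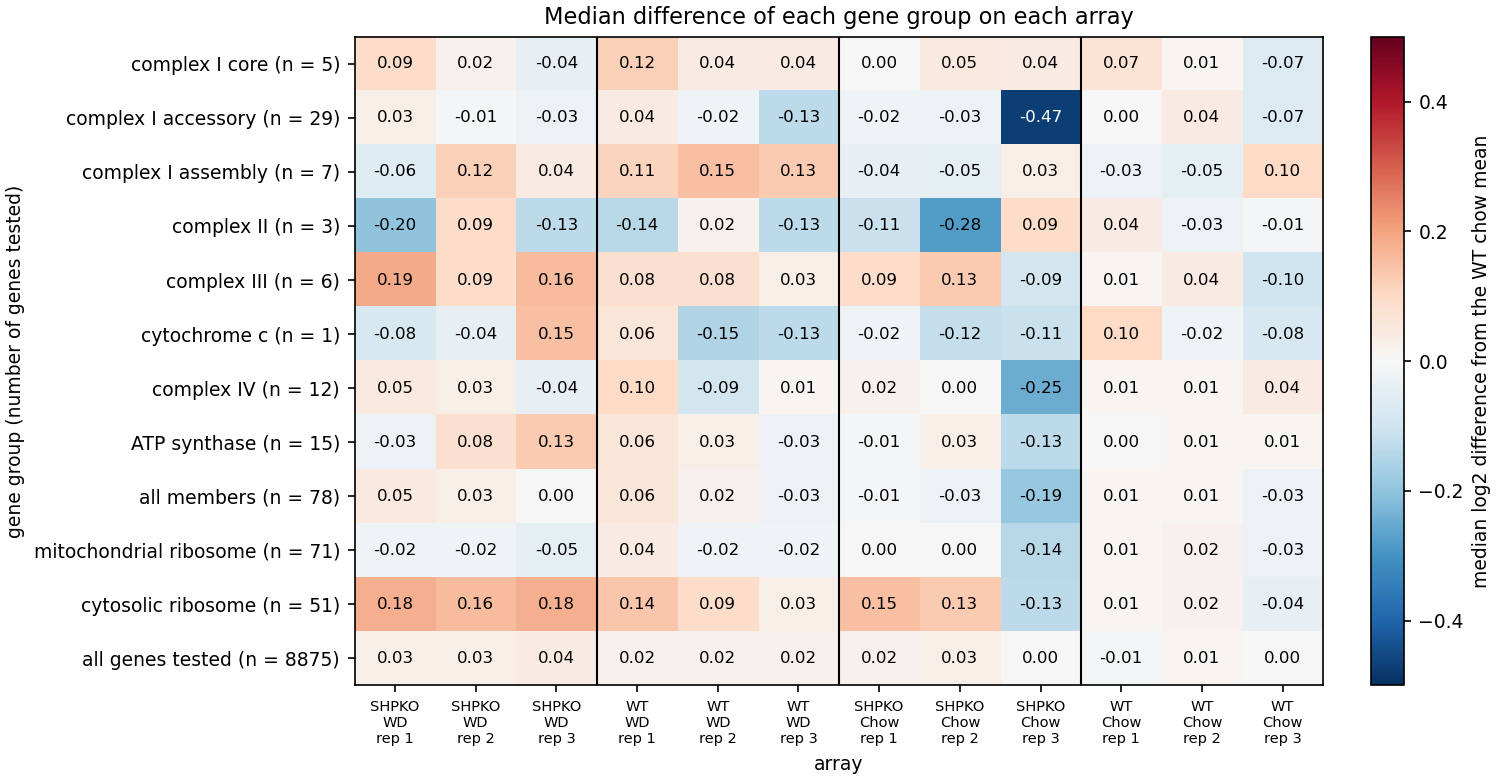
Median log2 difference of each gene group from its WT chow mean (colour and number) on each of the 12 arrays (x axis), for the 8 classes of members, all members, the mitochondrial and cytosolic ribosome and all genes tested (y axis, with numbers of genes). The complex I accessory subunits are at -0.47 on SHPKO chow replicate 3 and between -0.13 and 0.04 on the 11 other arrays.

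Over all 78 members the median log2 difference between genotypes was -0.10 on chow, with 19 above 0 (24.4%). Over all genes the median was 0.01, with 51.5% above 0. On the western diet the members' median was 0.03, with 46 above 0 (59%), against 0.02 and 53.7% over all genes. The members' diet medians were 0.01 in WT islets and 0.13 in SHPKO islets, each against 0.02 over all genes. In SHPKO islets 62 members (79.5%) lay above 0 for the diet, against 54.2% of all genes. The members' interaction median was 0.14, against 0.00. Without SHPKO_Chow replicate 3 the members' medians were -0.02 for the genotype on chow (34 above 0), 0.04 for the diet in SHPKO islets (46 above 0) and 0.05 for the interaction (48 above 0). The shares of all genes above 0 were then 54.6%, 50.4% and 49%.

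The shift on SHPKO_Chow replicate 3 was not even across complexes. Relative to the group's other 2 arrays, the median was -0.41 for complex I accessory subunits, -0.33 for complex III and -0.18 for complex IV. Of the accessory subunits 26 of 29 were lower, against 56.3% of all genes. The median was -0.07 for the complex I core, 0.03 for the assembly factors, -0.04 for ATP synthase and 0.35 for complex II. Ndufa3 was lowest at -1.11, followed by Uqcr11, a small complex III subunit, at -0.80 and Ndufb2, a membrane-arm subunit, at -0.77.

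Cytosolic ribosomal protein genes were also low on this array, with a median of -0.27, and mitochondrial ribosomal protein genes less so, at -0.11. A log2 deficit of more than 0.3 was seen for 38.5% of the members, 45.1% of the cytosolic and 23.9% of the mitochondrial ribosomal genes and 15.3% of all genes. Over the 14756 probes kept, the array's lowest correlation within its own group was 0.985, and its highest with an array of another group was 0.976. The labels give no feature that sets this array apart.

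**Figure D4:**
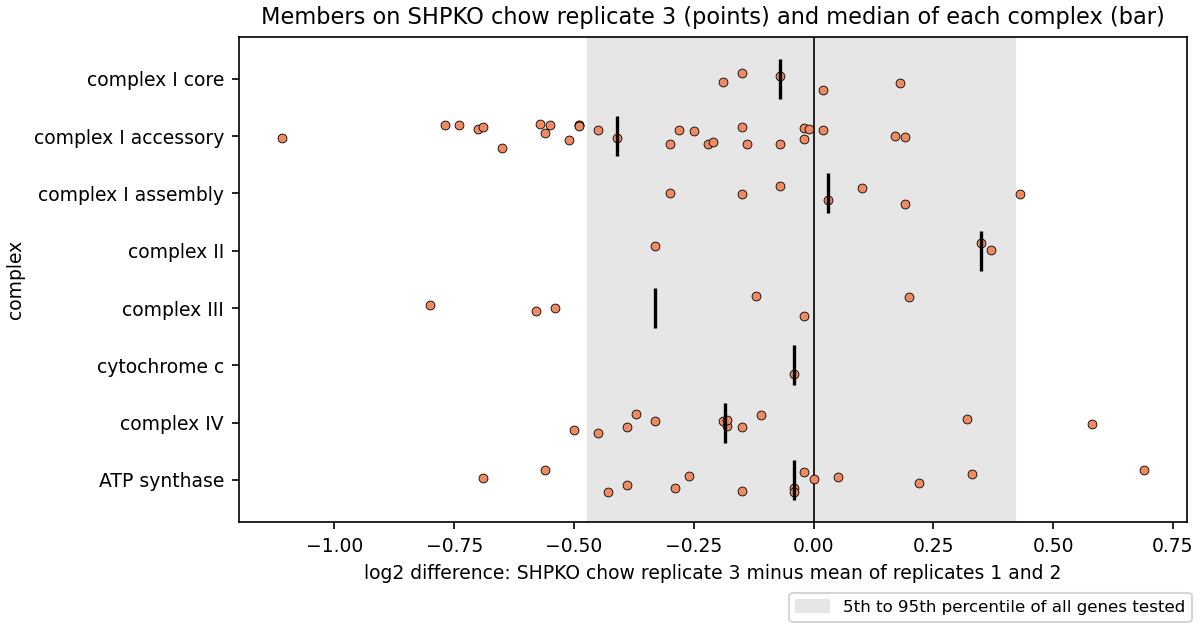
Log2 level on SHPKO chow replicate 3 minus the mean of SHPKO chow replicates 1 and 2 (x axis) for each member (points), by complex (y axis), with the median of each complex (bar). The grey band spans the 5th to 95th percentile of all genes tested, -0.47 to 0.42; the complex I accessory subunits reach -1.11.

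Other genes of mitochondrial function and of the ribosome were read from lists in the same fit. Over all genes tested, 2.14% to 5.8% were called per comparison. At that share few calls would be due in lists of this size. None of the 11 regulators of mitochondrial biogenesis, 16 citric acid cycle and pyruvate genes or 15 shuttle, carrier and uncoupling genes passed in any comparison. The same held for the 71 mitochondrial ribosomal genes and for 16 further assembly factors, among them factors of complex I without an Ndufaf name. Of 19 import and membrane genes, Timm9 was higher on the western diet in WT islets (0.31, adjusted p = 0.0479) and Hspe1 in SHPKO islets (0.49, adjusted p = 0.0491). Of 51 cytosolic ribosomal genes, Rps4l fell with the SHP deletion on chow (-0.58, adjusted p = 0.00803) and with the diet in WT islets (-0.43, adjusted p = 0.0344), and Rpl13a rose with the diet in SHPKO islets (0.33, adjusted p = 0.0496). Rps4l has near-identical gene copies, so its probe is uncertain. When single arrays were left out the adjusted p reached 0.156 for Timm9, 0.152 for Hspe1, 0.131 for Rps4l and the diet, and 0.148 for Rpl13a, and with all kept probes averaged Timm9 differed by 0.05. With no filter on detection none of the diet calls of these 4 genes held. The Hspe1 and Rpl13a calls were also lost with cyclic loess, the deposited normalized values, detection on all 12 arrays and single probes, and the Timm9 call with cyclic loess and single probes. With the replicate block the Hspe1 adjusted p was 0.0525.

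Of 17 complex IV assembly factors, Taco1, which activates translation of the mitochondrial Cox1 message, passed in 3 comparisons. It had 5.91, 5.31 and 5.88 in SHPKO_WD, 5.25, 4.91 and 4.73 in WT_WD, 5.37, 5.11 and 5.56 in SHPKO_Chow and 5.94, 5.60 and 5.71 in WT_Chow. It was not detected on the WT_WD arrays, so its level there is only a bound, set by the lowest signal among detected probes of each array. It was at least 1.31-fold higher in SHPKO_WD than in WT_WD (adjusted p = 0.036), and at least 1.35-fold lower in WT_WD than in WT_Chow (adjusted p = 0.025). Without single arrays its adjusted p reached 0.146 between genotypes and 0.0998 for the diet. With no filter on detection it was 0.0713 between genotypes and 0.0512 for the diet, and between genotypes it was 0.0633 without background correction and 0.0524 with the deposited values.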

How the data were processed

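The authors deposited non-normalized probe intensities with a detection p-value per array, and separately normalized intensities; per the submitters' processing notes the software was BeadStudio (version not given in the sources used here). The detection p-value is the authors' own and was used to keep probes (below 0.01 on all 3 arrays of a group). From the raw intensities, neqc (limma 3.58.1, R 4.3.3; offset 16) gave log2 normalized levels. Negative-control probes were not analysed here, so background was estimated through the detection p-values. Of 45281 probes, 14756 were kept. The probe with the highest mean level stands for a gene. Probes with several names or none were left out of gene tests. limma was fitted to 4 group means over 12 arrays, with Benjamini-Hochberg adjustment over all 8875 genes, and calls at adjusted p below 0.05. The fit was also tried on simulated data with noise drawn independently for each gene and array. That trial cannot speak to shifts shared by many genes of an array. Median raw intensity was 80 to 88 per array, and 13821 to 16101 probes were detected; 3 arrays per group limit the precision. No 2 arrays were identical. The same replicate number in SHPKO_WD and WT_WD went with correlated deviations (above 0.1 in all 3 pairs), and a fit with that number as a block was an alternative. Named members are those called, those with the largest difference in each complex and comparison, and fixed single genes (Cycs, complex II, subunit c). Others, namely Atp5o, Cox7a2, Atp5a1 and the genes low on SHPKO_Chow replicate 3, were named after their values were seen. Members and lists were chosen with earlier results of these data known. Promoters were searched with Python 3.11.15 as exact letters.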

Additional observations from a re-analysis of the deposited data

Results flagged for a closer look

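Atp5b was singled out because its genotype difference was not the same on the 2 diets by a test of the difference itself: SHPKO minus WT was 0.18 on the western diet and 0.83 on chow, giving an interaction of -0.66 (limma adjusted p = 0.0095). Leaving out each array in turn kept the interaction between -0.71 and -0.61, with adjusted p from 0.00908 to 0.0323.

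Taco1, which is not a subunit but an activator of Cox1 translation, was singled out by the same test, with SHPKO minus WT larger on the western diet than on chow by 1.14 on the log2 scale (limma adjusted p = 0.0382). Its probe was not detected on the 3 WT_WD arrays, so that this value is not a measured fold. Leaving out single arrays gave 1.03 to 1.33, with adjusted p from 0.0106 to 0.107. It was 0.47 without background correction (adjusted p = 0.0659), and with no filter on detection its adjusted p was 0.082. Groups of 3 arrays were not searched for outlying arrays by a formal rule.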

How the results depend on the processing

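Settings tried were no background correction, cyclic loess between arrays, the deposited normalized intensities, no detection filter, detection on all 12 arrays, the mean of a gene's probes, every probe singly, the replicate number as a block, an added 1.5-fold minimum, and each array left out. The chow genotype call and the interaction call, Atp5b in both, held in every one of them. Atp5b has no other probe, so averaging probes and taking them singly could not test its probe. For the genotype on the western diet the count of called members was 1 rather than 0 without background correction, with cyclic loess and with averaged probes (Cox6a2 each time), and 1 with every probe singly (a second, dim Ndufb8 probe). For the diet in SHPKO islets it was 3 rather than 1 without background correction (Cox6a2, Cox7a2, Ndufv1), 2 with cyclic loess and 2 with averaged probes. The cause of these moves was not tested.

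With arrays left out in turn, the count ranged from 1 to 2 for the genotype on chow (2 without SHPKO_Chow replicate 2), from 0 to 2 for the genotype on the western diet (2 without SHPKO_Chow replicate 3, 1 without WT_Chow replicate 3 or SHPKO_WD replicate 1), from 1 to 3 for the diet in WT islets (1 without WT_WD replicate 3), from 1 to 4 for the diet in SHPKO islets (4 without SHPKO_WD replicate 1, 2 without WT_Chow replicate 3 or SHPKO_Chow replicate 1) and stayed at 1 for the interaction. The members' median ranged from -0.11 to -0.02 for the genotype on chow, 0.01 to 0.04 for the genotype on the western diet, -0.01 to 0.02 for the diet in WT islets, 0.04 to 0.16 for the diet in SHPKO islets and 0.05 to 0.16 for the interaction. Among the named genes the values that changed sign were those of Sdhd, which never passed: between genotypes on the western diet it ranged from -0.29 to 0.14 (0.11 without WT_WD replicate 3, 0.14 without SHPKO_WD replicate 1), and for the diet in SHPKO islets from -0.04 (without SHPKO_WD replicate 3) to 0.38. Medians of single complexes that lay near 0 also changed sign in some settings, such as complex III between genotypes on chow (-0.02 to 0.11 with arrays left out). With the 1.5-fold minimum the diet in WT islets called 2 members, without Cox6a2.

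Arrays with the same replicate number correlated in their deviations from the group means at -0.03 to 0.54, above 0.1 in 11 of 18 pairs, against -0.49 to 0.30 and 5 of 36 for arrays of different numbers. All 3 pairs passed 0.1 for SHPKO_WD with WT_WD (0.42, 0.15 and 0.41) but not for the other comparisons, and the labels name nothing that a number marks. With the replicate block the diet in SHPKO islets called 3 members (Atp5md, Cox6a2, Cox7b), and the counts for the other comparisons were as without it. In all, 10 of the 88 genes gave no signal above background, and the 3 arrays of a group are read as repeats of pooled RNA, which limits all of the above.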
